A study of Mus musculus with 11 samples.

Results

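The genes described here encode the motors that walk along microtubules and the chains that belong to them: kinesins, kinesin light chains, the heavy, intermediate, light intermediate and light chains of cytoplasmic dynein, and the subunits of dynactin. They were chosen by symbol and by no measured value, while earlier results of these data were known. The table held 63 of them among 18193 genes named by at least 1 probe set. By role these were 15 transport kinesins, 3 kinesin light chains, 12 mitotic kinesins, 5 ciliary kinesins, 9 other kinesins, 5 chains of cytoplasmic dynein-1, 2 of dynein-2, 6 dynein light chains and 6 dynactin subunits. A single probe set stands for each gene, the one whose average over the 11 arrays was highest.

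Expression was measured on Affymetrix arrays in motor neurons of mouse embryos. The 11 arrays comprised 4 of phrenic neurons, 3 of LMC radial neurons and 4 of C3-C5 GFP-only neurons. LMC is the usual abbreviation of the lateral motor column. Every sample came from Hb9::GFP embryos of the strain C57/BL6, in which GFP is driven by the promoter of the motor neuron gene Hb9 (Mnx1), and the labels state no embryonic day. Trunk explants were back-labelled with dextran-tetramethylrhodamine, a fluorescent tracer, put into the phrenic nerve (phrenic neurons, which supply the diaphragm) or into the radial nerve (LMC radial neurons, which supply the forelimb). Spinal cords were dissociated and motor neurons were sorted by flow cytometry. The C3-C5 GFP-only neurons are named for GFP alone at cervical levels C3 to C5, and the titles of the LMC radial samples name no segmental level. Levels are on the log2 scale, so a difference of 1 is a factor of 2.

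Kinesins use ATP to move along microtubules, most of them towards the plus ends, which point to the tips of axons. Cytoplasmic dynein-1, together with dynactin, carries cargo the other way, from the axon tip to the cell body, and is the motor of retrograde signals from the target muscle. Other kinesins build the mitotic spindle and are made mainly by dividing cells, and dynein-2 with heterotrimeric kinesin-2 moves material inside cilia.

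The arrays carried the marks of motor neurons, with limits that touch the comparisons. The array means of 10 motor neuron markers lay between 9.30 and 9.55 in phrenic, between 8.87 and 9.07 in LMC radial and between 9.47 and 9.62 in C3-C5 GFP-only neurons. Of the 10, 3 were called lower in LMC radial than in C3-C5 GFP-only neurons, where 2.03% of all genes were called lower. These were Mnx1 (-0.93), Isl2 (-1.05) and Isl1 (-2.36), with limma adjusted p = 0.00193, 0.01 and 0.0177. Mnx1 (0.87) and Isl1 (2.69) were also called higher in phrenic than in LMC radial neurons (limma, adjusted p = 0.00123 and 0.00521). Isl2 (-0.99) was called lower in phrenic than in C3-C5 GFP-only neurons (limma, adjusted p = 0.0105). Isl1, a transcription factor of motor neurons, differed among the LMC radial arrays, with 10.92, 9.71 and 8.26, against 12.19 to 12.43 in phrenic and 11.88 to 12.08 in C3-C5 GFP-only arrays. The difference between the 3′ and 5′ control probe sets of Actb, a sign of RNA quality, was 1.05 to 2.15 in phrenic, 1.01 to 1.13 in LMC radial and 1.07 to 1.98 in C3-C5 GFP-only arrays. With it as a covariate the calls of Dync1i1, Kif26b and Kif26a given below still passed, and those of Kifc3 did not. Markers of other cells varied between arrays. The array mean of 18 mesenchyme and cartilage markers was 5.12 to 6.56 in phrenic, 4.86 to 5.96 in LMC radial and 4.29 to 4.72 in C3-C5 GFP-only arrays, with 6, 7 and 13 of the 18 genes averaging below 5, and 3 of 18 were called higher in phrenic than in C3-C5 GFP-only neurons, where 1.43% of all genes were called higher. The mean of 12 progenitor markers was 5.73 to 7.10 in phrenic, 5.93 to 6.28 in LMC radial and 5.68 to 5.82 in C3-C5 GFP-only arrays, and 1 of the 12, Slc1a3, was called higher in phrenic than in C3-C5 GFP-only neurons (1.73 ± 0.38; limma, adjusted p = 0.045). The mean of 4 sensory neuron and neural crest markers was 4.995 to 7.60 in phrenic, 5.43 to 6.18 in LMC radial and 5.42 to 5.86 in C3-C5 GFP-only arrays, and that of 8 interneuron markers was 4.27 to 5.37, 3.99 to 4.58 and 4.10 to 4.38; none of these genes was called in a pairwise comparison. Phrenic array 4 was highest in the progenitor, sensory and interneuron means. The means of 8 endothelial markers (3.50 to 4.86 over all arrays) and of 8 macrophage markers (3.27 to 4.84) lay below 5 on every array. The mean of 4 erythroid markers, those of red blood cells, was 3.14 to 6.48 in phrenic, 4.40 to 6.68 in LMC radial and 5.45 to 6.05 in C3-C5 GFP-only arrays. It was highest in LMC radial array 3. All 4 of these genes had lower averages in phrenic than in either other type, and none was called in a pairwise comparison. Arrays also fell into a set of 4 with a lower 25th percentile (phrenic 2 and 3, C3-C5 GFP-only 2 and 3) and a set of 7 with a higher one, a division seen in the values and named by no label.

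Few motor genes differed between the 3 types. The moderated test of limma, adjusted by the Benjamini-Hochberg method over all 45037 probe sets, called 1 of the 63 genes between phrenic and C3-C5 GFP-only neurons (1 higher, 0 lower), where 2.74% of all genes were called. It called 4 between phrenic and LMC radial neurons (3 higher, 1 lower), where 6.88% of all genes were called. Between LMC radial and C3-C5 GFP-only neurons it called 3 (1 higher, 2 lower), where 3.73% of all genes were called. Over the 3 comparisons 4 different genes of the 63 were called, 6.35%, beside 8.9% of all genes. These were Dync1i1, a dynein intermediate chain, and the kinesins Kif26b, Kif26a and Kifc3. The median difference over the 63 genes was 0.05, 0.06 and -0.03, and over all genes 0.0066, -0.0048 and 0.0059. The shares of motor genes called were thus near those of all genes. At such shares the absence of a call in a list of a few genes says little about that list. Among the 7 arrays of the higher set alone, 0, 2 and 0 of the 63 genes were called in these comparisons. Between LMC radial and C3-C5 GFP-only neurons these arrays gave -2.28 for Dync1i1, -2.34 for Kif26b and 0.87 for Kif26a (limma, adjusted p = 0.135, 0.103 and 0.173). The comparisons share arrays, and no label ties a replicate to an embryo or litter, so p-values measure the spread between these arrays, which may be technical.

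Dync1i1 held the largest difference among the motor genes. It encodes intermediate chain 1 of dynein-1, the form of the chain found mainly in neurons, which links the motor to dynactin and to cargo. Its level was 9.81, 9.63, 9.95 and 9.42 in the 4 phrenic arrays, 6.18, 5.96 and 4.72 in the 3 LMC radial arrays and 7.96, 8.38, 8.11 and 7.86 in the 4 C3-C5 GFP-only arrays. No array of one type overlapped with those of another: phrenic neurons were highest, C3-C5 GFP-only neurons intermediate and LMC radial neurons lowest. Phrenic neurons lay 4.08 ± 0.30 (SE) above LMC radial neurons, 16.9-fold (limma, adjusted p = 2.72e-05), with a 95% interval of 3.42 to 4.74. They lay 1.63 ± 0.28 above C3-C5 GFP-only neurons, 3.09-fold (limma, adjusted p = 0.0127), with an interval of 1.02 to 2.24. LMC radial neurons lay below C3-C5 GFP-only neurons by 5.48-fold (-2.45 ± 0.30; limma, adjusted p = 0.00198). In sorted pools, fewer cells with the RNA and less RNA per cell cannot be told apart. The LMC radial array with the least Dync1i1, array 3, was also the one with the least Isl1. Among the LMC radial arrays it also had the lowest means of motor neuron (8.87), mesenchyme (4.86), progenitor (5.93), interneuron (3.99) and sensory neuron and neural crest markers (5.43). Its mean of erythroid markers (6.68) was the highest of the 3. The part of the sorted population in the difference was not tested. Without phrenic arrays 3 and 4, which had the highest means of mesenchyme markers, the difference from LMC radial neurons was 4.10 and that from C3-C5 GFP-only neurons 1.65, and both passed (limma, adjusted p = 0.00026 and 0.0388). Among the 7 arrays of the higher set the difference between phrenic and C3-C5 GFP-only neurons was 1.71 and did not pass (limma, adjusted p = 0.226).

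No other chain of dynein-1 was called. Dync1i2, the second intermediate chain and the one made in most cells, had 10.63, 10.78, 10.81 and 10.82 in phrenic, 10.79, 10.52 and 10.72 in LMC radial and 10.72, 10.70, 10.64 and 10.78 in C3-C5 GFP-only arrays. The 3 groups overlapped, and the interval of phrenic minus LMC radial was -0.15 to 0.31. The heavy chain Dync1h1, which holds the motor domain, averaged 10.68, 10.70 and 10.81 in phrenic, LMC radial and C3-C5 GFP-only neurons. The light intermediate chains, which bind cargo adaptors, averaged 7.62, 7.65 and 7.84 (Dync1li1) and 10.68, 10.77 and 10.78 (Dync1li2) in the same order. Of the 5 dynein-1 chains, 4 had intervals within 1 log2 unit of 0 in all 3 pairwise comparisons, and Dync1i1 did not. The gene of intermediate chain 1 thus differed between types while no test called the gene of intermediate chain 2 or of the motor subunit.

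**Figure D1:**
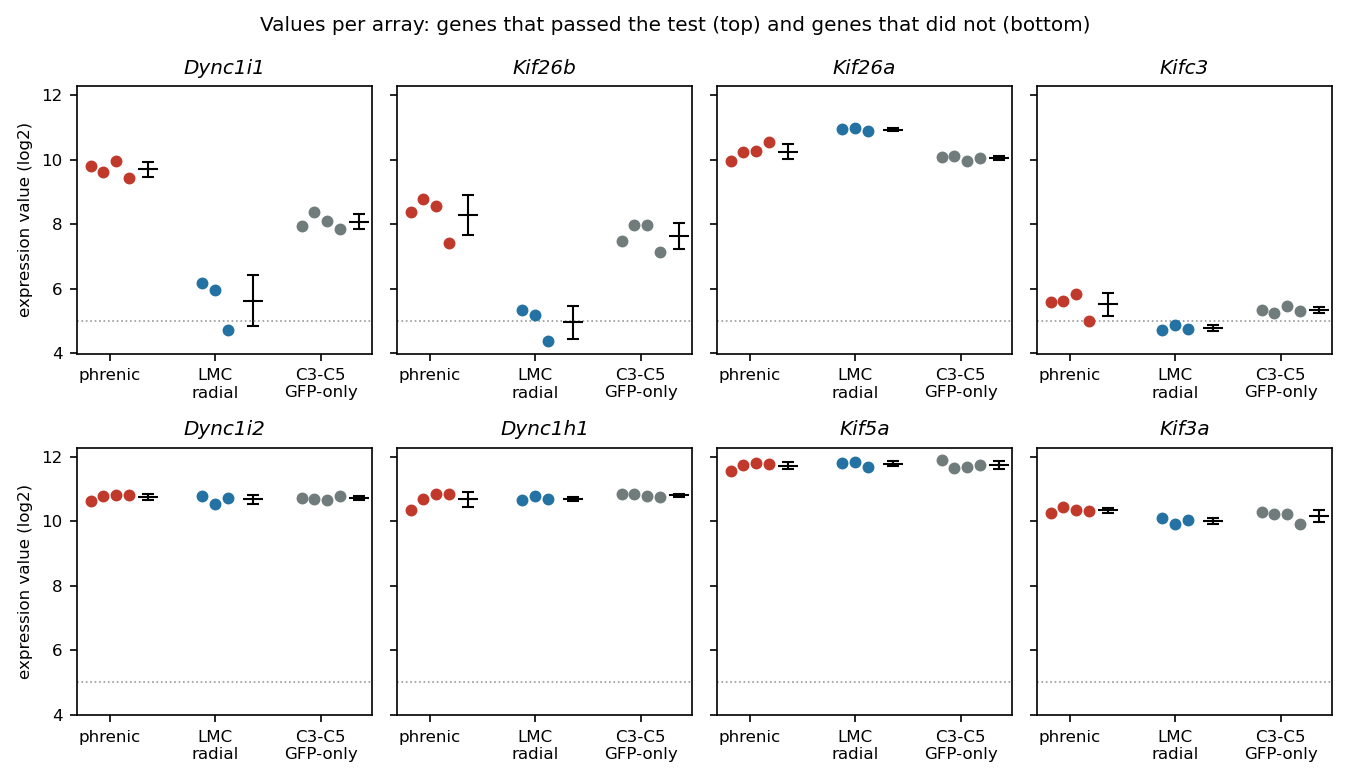
Expression value (log2) on each array for 8 motor genes, by motor neuron type. Points are arrays, the black bar beside them is the mean with its SD (n = 4 phrenic, 3 LMC radial, 4 C3-C5 GFP-only), and the dotted line marks 5, near the array medians. Dync1i1 separates the 3 types with LMC radial arrays at 4.72 to 6.18, Kif26b is low in LMC radial arrays, Kif26a is high in them, and the lower panels (Dync1i2, Dync1h1, Kif5a, Kif3a) show genes that were not called, among which Kif3a has its phrenic arrays above its LMC radial arrays.

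Kif26b was near background in LMC radial neurons and well above it in both other types. KIF26A and KIF26B are atypical kinesins that bind microtubules but are thought to lack motor activity; in mice Kif26b is needed for kidney development and Kif26a for the enteric nervous system, where it restrains GDNF-Ret signalling. Kif26b had 8.37, 8.79, 8.58 and 7.40 in phrenic, 5.33, 5.17 and 4.36 in LMC radial and 7.47, 7.97, 7.97 and 7.12 in C3-C5 GFP-only arrays. The LMC radial arrays lay below all others, and the phrenic and C3-C5 GFP-only arrays overlapped. Because the LMC radial mean of 4.96 lies near background, values below 5 were raised to 5 for the fold: Kif26b was at least 8.67-fold higher in phrenic than in LMC radial neurons (3.33 ± 0.35 as measured; limma, adjusted p = 0.000296). It was at least 5.52-fold lower in LMC radial than in C3-C5 GFP-only neurons (-2.68 ± 0.35; limma, adjusted p = 0.00276). Phrenic minus C3-C5 GFP-only was 0.65 ± 0.33, with an interval of -0.07 to 1.37 (limma, adjusted p = 0.448). As for Dync1i1, LMC radial array 3 was the lowest.

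Kif26a differed the other way. It had 9.97, 10.22, 10.27 and 10.54 in phrenic, 10.96, 10.97 and 10.88 in LMC radial and 10.08, 10.13, 9.95 and 10.05 in C3-C5 GFP-only arrays. All LMC radial arrays lay above all others, and the other groups overlapped. It was 1.61-fold lower in phrenic than in LMC radial neurons (-0.68 ± 0.13; limma, adjusted p = 0.0107) and 1.84-fold higher in LMC radial than in C3-C5 GFP-only neurons (0.88 ± 0.13; limma, adjusted p = 0.00512). The paralogs Kif26a and Kif26b therefore moved in opposite directions between LMC radial neurons and each of the other types. Ret, the receptor of the GDNF pathway and a motor neuron marker, was not called in any pairwise comparison (11.55, 11.64 and 11.29 on average in phrenic, LMC radial and C3-C5 GFP-only neurons). The call of Kif26a between phrenic and LMC radial neurons was lost when only those 2 types were fitted or only the 7 arrays of the higher set, while the difference lay between -0.84 and -0.59 in all 25 alternatives.

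Kifc3, a kinesin that moves towards minus ends, passed by a small margin and at a level close to background. It had 5.59, 5.60, 5.84 and 5.002 in phrenic, 4.72, 4.87 and 4.73 in LMC radial and 5.33, 5.23, 5.47 and 5.30 in C3-C5 GFP-only arrays. The LMC radial arrays were lowest and did not overlap with the others. The difference between phrenic and LMC radial neurons was 0.74 ± 0.17 (limma, adjusted p = 0.0286), and with values below 5 raised to 5 it was 0.51 and no longer passed (adjusted p = 0.246). It passed in 12 of 25 alternatives and in 5 of the 11 fits with 1 array left out, and the call was lost without phrenic array 1, 2 or 3 or without any of the LMC radial arrays. It did not pass between LMC radial and C3-C5 GFP-only neurons (-0.56 ± 0.17; limma, adjusted p = 0.103).

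Setting each type against the average of both others called the same 4 genes. For phrenic neurons Dync1i1 (2.85 ± 0.25) and Kif26b (1.99 ± 0.29) were higher and 0 genes lower, where 4.86% of all genes were called (limma, adjusted p = 7.9e-05 and 0.00301). For LMC radial neurons Kif26a (0.78 ± 0.11) was higher, and Dync1i1 (-3.27 ± 0.27), Kif26b (-3.00 ± 0.31 as measured) and Kifc3 (-0.65 ± 0.15 as measured) were lower, where 7.07% of all genes were called. With values below 5 raised to 5, Kif26b was at least 6.92-fold lower and passed, and Kifc3 was at -0.42 and did not (limma, adjusted p = 0.00315 and 0.328). The call of Kifc3 passed in 13 of 24 alternatives. It was lost without phrenic array 2, without C3-C5 GFP-only array 3 and without any 1 of the LMC radial arrays, and also with quantile normalization, a robust fit, the array set as a block, the 7 arrays of the higher set or the Actb covariate. For C3-C5 GFP-only neurons only Kif26a was called (-0.54 ± 0.11; limma, adjusted p = 0.0429), where 1.2% of all genes were called. That last call passed in 2 of the 11 fits with 1 array left out (without phrenic array 1 or 4), and not with the replicate number as a block (adjusted p = 0.056).

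None of the 15 kinesins of axonal transport was called by the probe set that represents it. This held in the 3 pairwise comparisons and in those with the mean of the other types. Other probe sets of Kif5b, Kif13a, Kif13b and Kif1c were called in at least 1 pairwise comparison, as described below. At an unadjusted p under 0.05, 1, 1 and 0 of the 15 representing probe sets differed in the 3 pairwise comparisons, beside 15.1%, 22.4% and 19% of all genes. The kinesin-1 heavy chains, which carry vesicles and mitochondria, averaged 11.72, 11.78 and 11.74 (Kif5a), 9.80, 9.68 and 9.72 (Kif5b) and 11.92, 11.998 and 12.09 (Kif5c) in phrenic, LMC radial and C3-C5 GFP-only neurons. Kif5a had 11.56, 11.73, 11.81 and 11.78 in phrenic, 11.81, 11.84 and 11.69 in LMC radial and 11.91, 11.65, 11.68 and 11.74 in C3-C5 GFP-only arrays. Its groups overlapped, and its intervals were -0.25 to 0.20 for phrenic minus C3-C5 GFP-only, -0.30 to 0.18 for phrenic minus LMC radial and -0.21 to 0.27 for LMC radial minus C3-C5 GFP-only.

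The kinesin-3 motors of synaptic vesicle precursors and mitochondria were likewise not called by the probe sets that represent them. In the order phrenic, LMC radial and C3-C5 GFP-only, Kif1a averaged 7.78, 7.79 and 7.82, Kif1b 11.60, 11.42 and 11.56, and Kif1c 6.62, 6.501 and 6.49. With the mean of all its probe sets in place of the brightest, Kif1c turned to -0.41 for phrenic minus LMC radial and passed (limma, adjusted p = 0.0327), against 0.11 with the brightest. Among their relatives, Kif13a averaged 9.20, 8.98 and 8.88, Kif13b 6.74, 6.59 and 6.91, and Kif16b, a motor of early endosomes, 8.65, 8.27 and 8.43. Kif13a had the largest difference of the transport kinesins between phrenic and C3-C5 GFP-only neurons (0.32; limma, adjusted p = 0.378), and Kif16b between phrenic and LMC radial neurons (0.39; limma, adjusted p = 0.434). Of the kinesin-4 motors, Kif21a averaged 10.12 in phrenic and 9.94 in LMC radial neurons (difference 0.17, and 0.12 against C3-C5 GFP-only neurons), and Kif21b averaged 7.37, 7.13 and 7.58. Kif21b was the 1 transport kinesin whose intervals reached beyond 1 log2 unit, at -1.08 to 0.17 for LMC radial minus C3-C5 GFP-only.

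Kinesin-2, which works in axons and in cilia, came closest to a call among the transport motors. Kif3a, one of its motor subunits, had 10.26, 10.45, 10.35 and 10.32 in phrenic, 10.09, 9.91 and 10.04 in LMC radial and 10.30, 10.22, 10.22 and 9.91 in C3-C5 GFP-only arrays. All phrenic arrays lay above all LMC radial arrays, and C3-C5 GFP-only arrays overlapped with both. The difference of 0.33 ± 0.12 between phrenic and LMC radial neurons did not pass (limma, adjusted p = 0.119). Its partners Kif3b (8.06, 8.40 and 8.31 on average in phrenic, LMC radial and C3-C5 GFP-only neurons) and Kif3c (9.13, 9.20 and 9.31) had differences of -0.35 and -0.07 in the same comparison, so the subunits did not lie on one side. Kif17, the homodimeric kinesin-2, averaged 4.30, 4.16 and 4.10, below 5 in every type.

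Kinesin light chains, which couple kinesin-1 to cargo, were not called either. Klc1, the neuronal light chain, averaged 11.56, 11.58 and 11.70, Klc3 5.22, 5.36 and 5.62, and Klc4 7.19, 7.01 and 7.16 in phrenic, LMC radial and C3-C5 GFP-only neurons. Klc3 had the largest difference, -0.40 between phrenic and C3-C5 GFP-only neurons (limma, adjusted p = 0.276), with an unadjusted p of 0.024.

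Dynactin, the complex that dynein needs for long-range movement, held no call by the probe sets that represent its genes. Another probe set of Dctn4 was called higher in phrenic than in LMC radial neurons (0.78 ± 0.15, limma, adjusted p = 0.0117). Its means there were 4.77 and 3.98, both below 5. Dctn1, the p150Glued subunit that binds the dynein intermediate chains and microtubules, averaged 9.26, 8.99 and 9.30 in phrenic, LMC radial and C3-C5 GFP-only neurons, with an interval of -0.18 to 0.71 for phrenic minus LMC radial. In the same order, dynamitin Dctn2 averaged 10.51, 10.45 and 10.40, Dctn3 8.29, 8.43 and 8.32, Dctn4 11.83, 11.87 and 11.76, Dctn5 11.25, 11.37 and 11.32, and Dctn6 9.90, 9.95 and 10.10. All 6 had intervals within 1 log2 unit of 0 in the 3 pairwise comparisons. The 4 measured dynactin subunits whose symbols do not start with Dctn (Actr1a, Capza1, Capza2 and Capzb) were not called, with array means of 10.76 to 10.89 in phrenic, 10.77 to 10.85 in LMC radial and 10.81 to 10.85 in C3-C5 GFP-only neurons. Dctn1, the subunit that binds the dynein intermediate chains, thus had no called difference beside the 16.9-fold difference of Dync1i1.

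The dynein light chains, small dimers shared with other complexes, also held no call. Dynll1 averaged 12.29, 12.44 and 12.42, Dynll2 10.98, 10.91 and 10.77, Dynlrb1 10.72, 10.87 and 10.83, Dynlt3 10.98, 10.85 and 10.90, and Dynlt1f 8.60, 8.90 and 8.90 in phrenic, LMC radial and C3-C5 GFP-only neurons. Dynlt1f is a member of a family of near-identical copies, and 3 probe sets naming several Dynlt1 genes were left out, so its value may not be that of 1 gene. Dynlrb2, the roadblock chain of ciliated tissues, was below 5 on every array. It had 2.96, 2.89, 3.12 and 2.92 in phrenic, 3.28, 3.19 and 3.33 in LMC radial and 3.12, 3.30, 2.85 and 3.07 in C3-C5 GFP-only arrays. These are differences between values near background.

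No motor of cilia was called. The dynein-2 heavy chain Dync2h1, which moves cargo from the tip of the cilium to its base, averaged 6.27, 5.75 and 6.36 in phrenic, LMC radial and C3-C5 GFP-only neurons, and its light intermediate chain Dync2li1 averaged 6.90, 6.82 and 6.58. Of the 5 ciliary kinesins 3 averaged below 5 in every type (Kif6, Kif9 and Kif27). Kif7, a regulator of Hedgehog signalling at the tip of the cilium, averaged 5.41, 5.14 and 5.36. Kif9 had 4.64, 4.28, 5.11 and 4.29 in phrenic, 3.98, 3.88 and 4.19 in LMC radial and 4.47, 4.66, 4.28 and 4.15 in C3-C5 GFP-only arrays. Its phrenic arrays lay above its LMC radial arrays, but the difference of 0.57 ± 0.21 did not pass (limma, adjusted p = 0.133). Kif24, which keeps cilia from forming on mother centrioles, had 5.37, 5.52, 5.52 and 5.75 in phrenic, 5.24, 5.40 and 4.75 in LMC radial and 5.50, 5.62, 5.57 and 5.51 in C3-C5 GFP-only arrays. Its lowest value was again in LMC radial array 3, and LMC radial minus C3-C5 GFP-only was -0.42 ± 0.15 (limma, adjusted p = 0.161). All 5 ciliary kinesins had a positive difference between phrenic and LMC radial neurons, of 0.22 (Kif27) to 0.57 (Kif9), where 49.3% of all genes had one. None passed, and for the 3 genes that averaged below 5 in every type the sign is that of values near background.

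**Figure D2:**
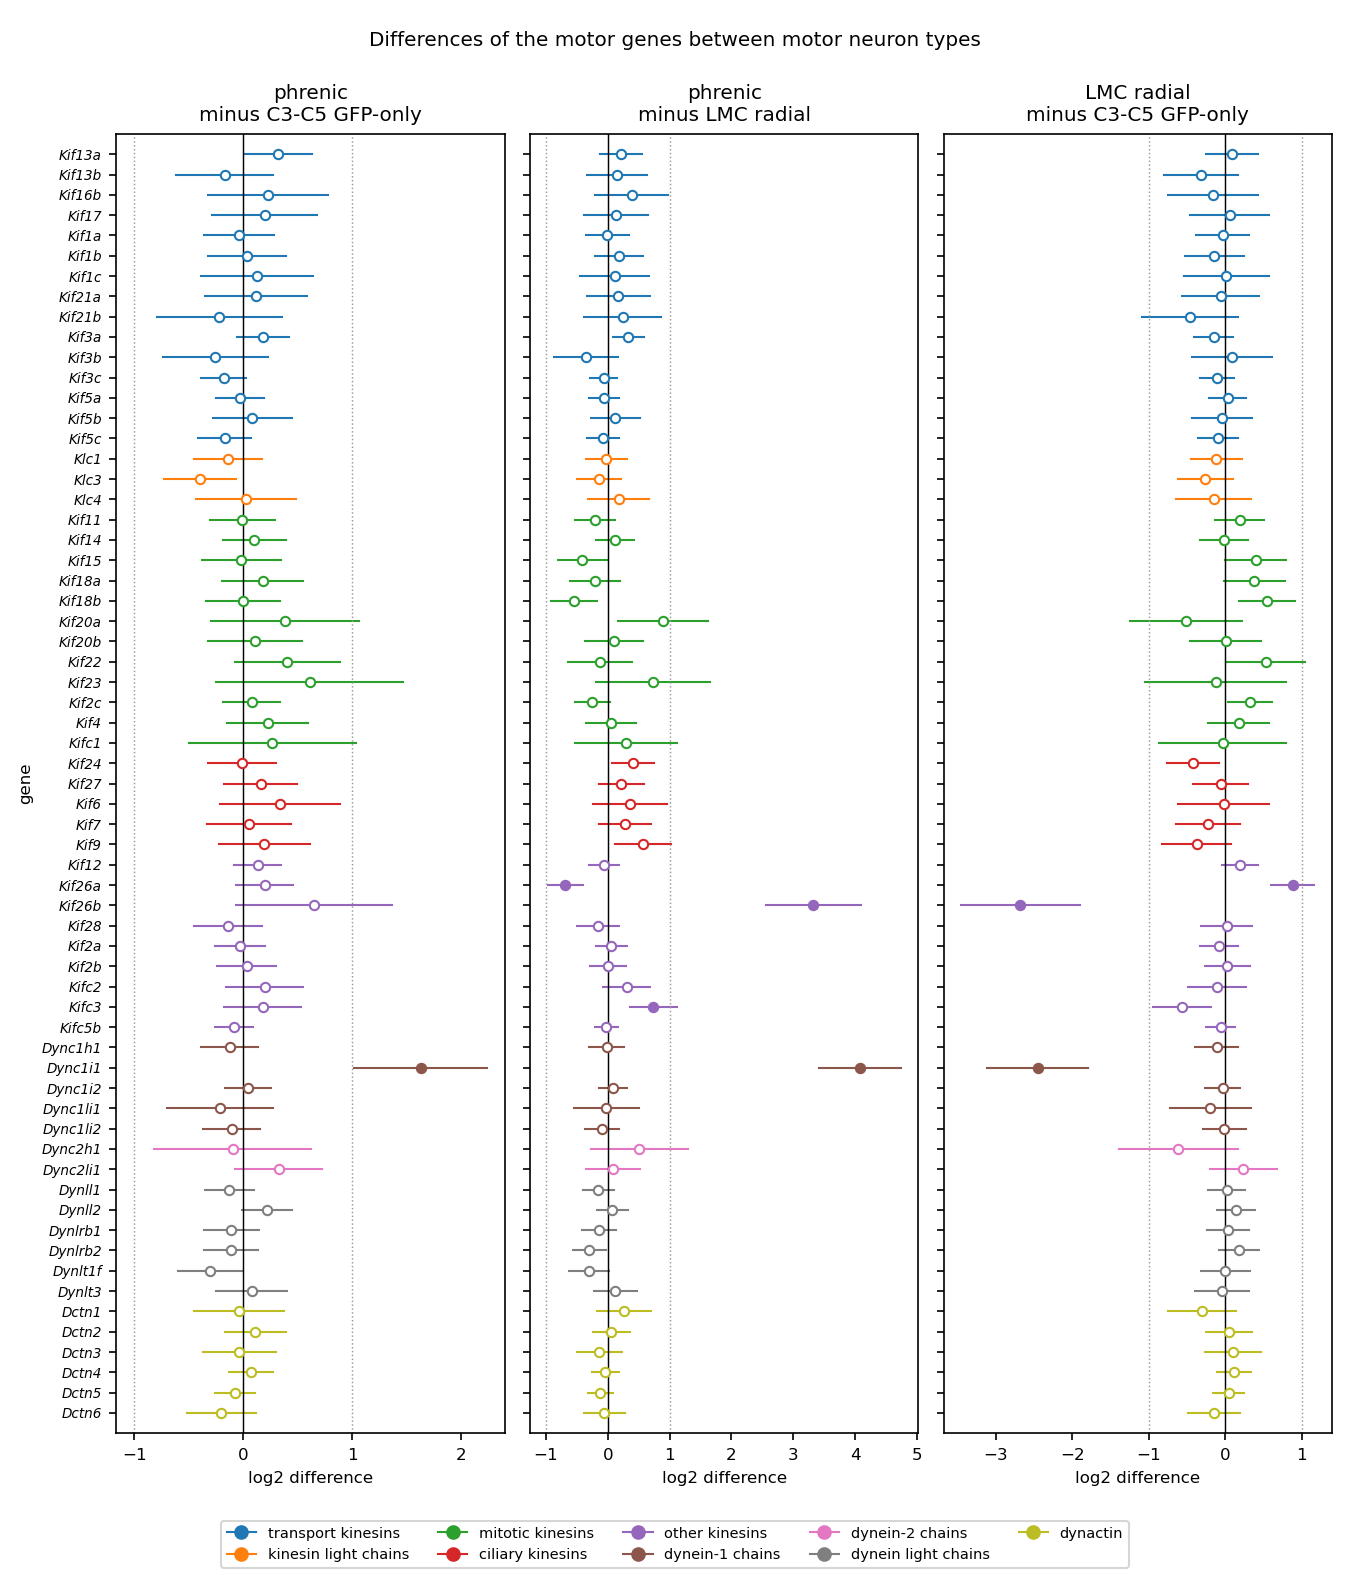
Log2 difference of each of the 63 motor genes (circle) with its 95% interval (line) in the 3 pairwise comparisons, coloured by role; filled circles passed limma's adjusted test, and dotted lines mark 1 log2 unit to either side of 0. The horizontal axes differ between panels. Dync1i1, Kif26b, Kif26a and Kifc3 are the filled points, and 52 of 63 genes have all 3 intervals between the dotted lines.

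The intervals bound how far the other genes could differ, as read by the 1 probe set that represents each gene. In 52 of the 63 genes (82.5%) the 95% intervals of all 3 pairwise comparisons lay within 1 log2 unit of 0, against 74.2% of all genes. This held for 14 of 15 transport kinesins, 3 of 3 light chains of kinesin, 6 of 6 dynein light chains and 6 of 6 dynactin subunits, and for 8 of 12 mitotic kinesins. Among genes with a mean of 8 or more, 27 of 28 motor genes (96.4%) stayed within that bound, against 86.2% of 5325 genes. In a pairwise comparison 1 of these 28 motor genes (3.57%) was called, against 8.64%. Dync1i1 was not among the 28, because its low LMC radial arrays put its mean over all arrays just below 8. It was called and exceeded the bound, so these shares leave out the motor gene with the largest difference. No test of these shares was made. The array-to-array spread limits these intervals: the median SD over the 63 genes was 0.27 in phrenic, 0.12 in LMC radial and 0.18 in C3-C5 GFP-only arrays. The intervals do not cover other probe sets. Those of Kif13b (-1.24) and Kif2a (1.14) called between phrenic and LMC radial neurons exceeded 1 log2 unit, although both genes stayed within that bound. Of the 63 genes, 17 averaged below 5 in every type, so their intervals describe values near background.

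Most mitotic kinesins had probe sets near background. Of the 12, 8 were below 5 on every array (Kif11, Kif14, Kif15, Kif18a, Kif18b, Kif20b, Kif2c and Kif4), whereas none of the 15 transport kinesins was, although Kif17 exceeded 5 on 1 array alone. A value of 1 probe set cannot be set against that of another, so this says only how many probe sets lay near background. None of the 12 was called in any comparison by the probe set that represents it. Unadjusted p-values under 0.05 numbered 0 for phrenic minus C3-C5 GFP-only, 3 for phrenic minus LMC radial and 4 for LMC radial minus C3-C5 GFP-only, of 12 genes each, beside the 15.1%, 22.4% and 19% of all genes. The median difference over the 12 was 0.15, -0.04 and 0.18 in the same order.

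Kif18b, which trims astral microtubules in mitosis, came closest to a call. It had 3.48, 3.04, 3.83 and 3.72 in phrenic, 4.10, 4.00 and 4.10 in LMC radial and 3.54, 3.37, 3.58 and 3.58 in C3-C5 GFP-only arrays. The LMC radial arrays lay above all others, at values near background, and the differences were -0.55 ± 0.17 for phrenic minus LMC radial (limma, adjusted p = 0.0824) and 0.55 ± 0.17 for LMC radial minus C3-C5 GFP-only (limma, adjusted p = 0.103). Without phrenic array 2 the second passed (adjusted p = 0.0336), and without phrenic arrays 3 and 4 both did (adjusted p = 0.0129 and 0.0357). Against the mean of the other types, LMC radial neurons lay 0.55 ± 0.15 higher, which did not pass (limma, adjusted p = 0.0521). That difference passed without phrenic array 2, 3 or 4 (limma, adjusted p = 0.0322, 0.0344 and 0.034). It passed in no other fit with 1 array left out. Kif2c, which depolymerises microtubules at centromeres, had 3.24, 3.43, 3.43 and 3.63 in phrenic, 3.66, 3.87 and 3.51 in LMC radial and 3.42, 3.23, 3.29 and 3.48 in C3-C5 GFP-only arrays. Kif15, a spindle kinesin, had 3.36, 2.80, 3.14 and 3.52 in phrenic, 3.54, 3.69 and 3.64 in LMC radial and 3.36, 3.23, 2.89 and 3.42 in C3-C5 GFP-only arrays. For both, the LMC radial arrays lay above the C3-C5 GFP-only arrays, by 0.33 ± 0.13 and 0.40 ± 0.18, and neither passed (limma, adjusted p = 0.189 and 0.245).

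Kif20a and Kif23, kinesins of the central spindle and of cytokinesis, had positive differences between phrenic and LMC radial neurons that did not pass. Kif20a had 5.29, 4.90, 4.61 and 5.87 in phrenic, 3.54, 4.94 and 4.34 in LMC radial and 4.61, 4.71, 4.87 and 4.94 in C3-C5 GFP-only arrays. Phrenic minus LMC radial was 0.90 ± 0.33 (limma, adjusted p = 0.142), and the groups overlapped. Kif23 had 4.45, 4.49, 6.27 and 5.71 in phrenic, 4.00, 4.40 and 5.08 in LMC radial and 4.38, 4.79, 4.53 and 4.78 in C3-C5 GFP-only arrays. Its 2 highest arrays were phrenic 3 and 4, and phrenic minus LMC radial was 0.74 (limma, adjusted p = 0.334). Its second probe set was called the other way, at -1.04 ± 0.16 for phrenic minus LMC radial and 0.96 ± 0.16 for LMC radial minus C3-C5 GFP-only (limma, adjusted p = 0.00391 and 0.011), with means of 3.26, 4.30 and 3.34 in phrenic, LMC radial and C3-C5 GFP-only neurons. The direction of Kif23 is therefore not settled by these probe sets. Kif22, a chromokinesin, was the mitotic kinesin with values above 6 on every array and averaged 7.23, 7.35 and 6.82 in phrenic, LMC radial and C3-C5 GFP-only neurons. In the same order, Kif11, the motor that separates spindle poles, averaged 4.32, 4.52 and 4.33, Kif14 2.69, 2.57 and 2.59, Kif18a 3.48, 3.68 and 3.30, Kif20b 4.51, 4.40 and 4.40, Kif4 3.53, 3.48 and 3.30, and Kifc1 5.38, 5.08 and 5.11.

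Phrenic arrays carried more signal of other cell cycle genes than C3-C5 GFP-only arrays. The array means of the 28 measured cell cycle genes were 6.27, 5.99, 6.74 and 7.56 in phrenic, 5.98, 6.33 and 5.82 in LMC radial and 5.50, 5.86, 5.81 and 5.72 in C3-C5 GFP-only arrays. All phrenic arrays lay above all C3-C5 GFP-only arrays, while phrenic arrays 1 and 2 lay below LMC radial array 2. Of the 28 genes 3 rose in phrenic over C3-C5 GFP-only neurons and 0 fell, where 1.43% of all genes were called higher: Racgap1 (1.05 ± 0.16; limma, adjusted p = 0.00595), Cdk1 (1.77 ± 0.37; adjusted p = 0.0384) and Tpx2 (1.56 ± 0.33; adjusted p = 0.0392). The product of Racgap1 works with the kinesin made from Kif23 in the centralspindlin complex, and Tpx2 is a spindle assembly factor. Racgap1 also rose in phrenic over LMC radial neurons (1.27 ± 0.17, limma, adjusted p = 0.00139). It was the only 1 of the 28 called there, where 3.88% of all genes were called higher. None of the 28 was called between LMC radial and C3-C5 GFP-only neurons, where 3.73% of all genes were called. The median difference over the list was 0.997, 0.70 and 0.25 in the 3 comparisons. The means of the 12 mitotic kinesins per array were 4.13, 4.09, 4.499 and 4.504 in phrenic, 4.18, 4.39 and 4.23 in LMC radial and 3.96, 4.10, 4.12 and 4.26 in C3-C5 GFP-only arrays, and these groups overlapped. Phrenic 3 and 4 had the highest means of cell cycle genes, of mitotic kinesins and of mesenchyme markers alike (6.48 and 6.56 for mesenchyme), and phrenic 4 had the highest means of progenitor (7.10) and of sensory neuron and neural crest markers (7.60). The 12 mitotic kinesins had their highest values in phrenic arrays 2, 3 and 4 (1, 3 and 2 genes) and in LMC radial arrays 2 and 3 (4 and 2 genes). None had it in a C3-C5 GFP-only array, and the share over all genes was not counted. Because 8 of the 12 lay below 5 on every array, most of these highest values lie near background. The part of other sorted cells in the values of cell cycle genes, mitotic kinesins and markers was not tested.

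**Figure D3:**
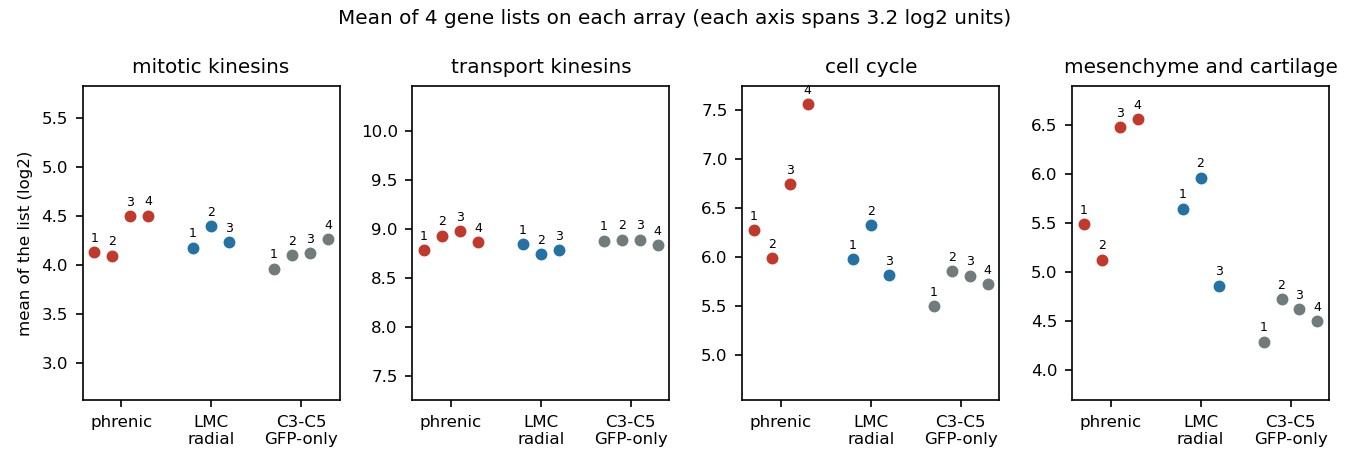
Mean log2 value on each array (points, with the replicate number above) of the 12 mitotic kinesins, the 15 transport kinesins, 28 cell cycle genes and 18 mesenchyme and cartilage markers, by motor neuron type. Each axis spans 3.2 log2 units. Phrenic arrays 3 and 4 lead the mitotic, cell cycle and mesenchyme panels, while the means of the transport kinesins stay between 8.74 and 8.98 on all 11 arrays.

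The remaining kinesins were placed in neither the transport nor the mitotic list, so the counts of mitotic kinesins leave them out whatever part they have in mitosis. Kif2a, which depolymerises microtubules and limits axon branching, averaged 10.71, 10.66 and 10.74, and Kifc2, a minus-end motor of neurons, averaged 9.15, 8.84 and 8.95 in phrenic, LMC radial and C3-C5 GFP-only neurons. Neither was called. Kif12, Kif28, Kif2b and Kifc5b were below 5 on every array.

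Other probe sets of the same genes gave a partly different answer. The 63 genes had 146 probe sets, 26 genes had 1 and 37 had several, and the 4 called genes had 1 each. Of the 83 probe sets that did not represent their gene, 0 were called between phrenic and C3-C5 GFP-only neurons, where 1.96% of all probe sets were called. Between phrenic and LMC radial neurons 8 of the 83 were called (9.64%), where 6.61% of all probe sets were called. Between LMC radial and C3-C5 GFP-only neurons 5 were called (6.02%), where 3.76% of all probe sets were called. They belonged to Dctn4, Kif13a, Kif13b, Kif1c, Kif23, Kif2a and Kif5b, and the brighter probe set of each of these genes was not called.

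The dim probe sets of Kif13b, Kif1c and Kif2a show the size of the disagreement. The largest called difference among these 83 was that of a probe set of Kif13b, with means of 3.71 in phrenic, 4.95 in LMC radial and 4.05 in C3-C5 GFP-only neurons. This probe set was lower in phrenic than in LMC radial neurons (-1.24 ± 0.21; limma, adjusted p = 0.00507) and higher in LMC radial than in C3-C5 GFP-only neurons (0.90 ± 0.21; limma, adjusted p = 0.0382). The probe set that represents Kif13b differed by 0.15 and -0.32 in these comparisons, with the signs turned. Both dim probe sets of Kif1c were lower in phrenic than in LMC radial neurons (-0.57 ± 0.14 and -0.78 ± 0.15; limma, adjusted p = 0.0334 and 0.0133), while the probe set that represents the gene differed by 0.11. A second probe set of Kif2a was higher in phrenic than in LMC radial neurons (1.14 ± 0.25; limma, adjusted p = 0.0227), at means of 5.05 and 3.91, while the one that represents the gene differed by 0.06. A second probe set of Kif5b was higher (0.63 ± 0.16; limma, adjusted p = 0.0373), at means of 6.88 and 6.25. Except for those of Kif5b and Kif13a, every called mean pair included a value below 5, and which transcripts the probe sets match was not analysed here.

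**Figure D4:**
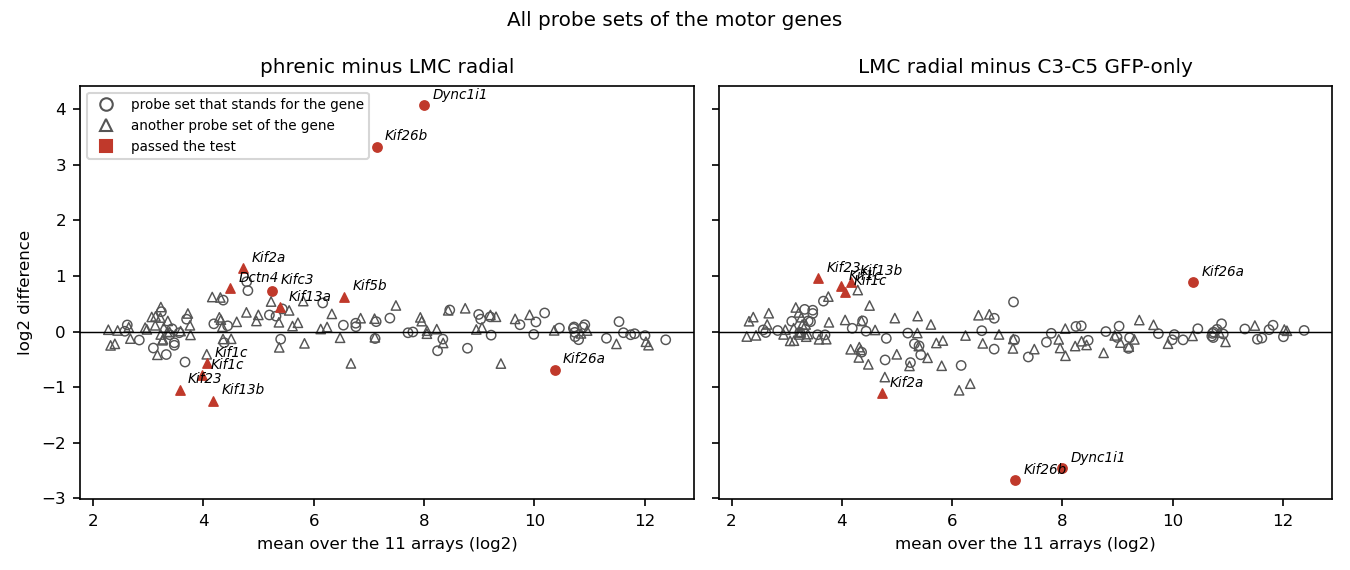
Log2 difference against the mean over the 11 arrays (log2) for all probe sets of the motor genes, for phrenic minus LMC radial (left) and LMC radial minus C3-C5 GFP-only neurons (right). Circles are the probe sets that represent their gene, triangles the other probe sets, and red symbols passed limma's adjusted test. The called triangles lie in the left part of each panel, at low means, and Dync1i1, Kif26b, Kif26a and Kifc3 are the called circles.

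The proteins that link motors to cargo held 1 call. Of 28 measured adaptors and regulators 1 was called between phrenic and LMC radial neurons, where 6.88% of all genes were called, and 0 in the other pairwise comparisons: Hook3, an adaptor that activates dynein, rose in phrenic over LMC radial neurons (0.46 ± 0.12; limma, adjusted p = 0.0395). Trak2, which ties motors to mitochondria, had 0.80 ± 0.27 in the same comparison (limma, adjusted p = 0.106), and the kinesin-1 scaffold Mapk8ip3 had -0.44 ± 0.12 between LMC radial and C3-C5 GFP-only neurons (limma, adjusted p = 0.0628). The medians over the 28 were 0.0022, 0.09 and -0.18 in the 3 comparisons. None of 18 neuronal microtubule proteins, the track on which the motors run, was called in a pairwise comparison. Of all genes 2.74%, 6.88% and 3.73% were called in the 3 comparisons. Among them Map2 had -0.27 ± 0.10 between phrenic and C3-C5 GFP-only neurons (limma, adjusted p = 0.261), and the neuronal tubulin Tubb3 had -0.28 ± 0.13 between phrenic and LMC radial neurons (limma, adjusted p = 0.228).

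The sequences before the genes with calls are shown because 2 of them fell together in LMC radial neurons. RefSeq lists, for the mouse build GRCm38.p6, a window of 250 bases before to 50 bases after the start of the gene, and 50 of the 63 motor genes matched 1 by symbol. Kifc3 was among those that did not. Capitals mark matches, on either strand, to any of 6 short motifs: CCAAT, read as ATTGG on the other strand, then TTTGAA, read as TTCAAA, then GGGCGG, read as CCGCCC, then TATAAA, read as TTTATA, and the palindromes TTCGAA and TAATTA. No motif contains another. Each is written 5′ to 3′ in the direction of the gene.
Dync1i1, chr6:5725389-5725688, plus strand: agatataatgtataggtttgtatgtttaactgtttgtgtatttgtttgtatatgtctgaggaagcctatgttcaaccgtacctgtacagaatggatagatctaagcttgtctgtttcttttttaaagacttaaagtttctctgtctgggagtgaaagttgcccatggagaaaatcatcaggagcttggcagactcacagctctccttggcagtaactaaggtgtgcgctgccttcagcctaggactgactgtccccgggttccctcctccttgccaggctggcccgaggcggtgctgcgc
Kif26b, chr1:178528875-178529174, plus strand: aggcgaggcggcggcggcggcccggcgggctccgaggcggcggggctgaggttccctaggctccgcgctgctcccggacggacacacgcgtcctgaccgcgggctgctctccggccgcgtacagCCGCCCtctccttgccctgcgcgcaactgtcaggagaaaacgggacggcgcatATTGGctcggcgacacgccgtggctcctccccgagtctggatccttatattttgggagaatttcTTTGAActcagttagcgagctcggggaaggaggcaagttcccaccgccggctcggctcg
Kif26a, chr12:112145958-112146257, plus strand: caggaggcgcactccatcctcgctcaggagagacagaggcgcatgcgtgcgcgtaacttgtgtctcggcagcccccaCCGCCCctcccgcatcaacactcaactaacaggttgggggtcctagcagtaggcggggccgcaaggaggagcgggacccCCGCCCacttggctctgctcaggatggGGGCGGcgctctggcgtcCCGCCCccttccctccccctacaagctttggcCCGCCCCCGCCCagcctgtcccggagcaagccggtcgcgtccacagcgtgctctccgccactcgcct

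The windows of Dync1i1 and Kif26b had no motif in common. The window of Dync1i1 held none of the 6 and was 46.7% G or C, while those of Kif26b and Kif26a were 68.3% and 69.7%. The window of Kif26b held CCAAT as well as TTTGAA and also GGGCGG, and that of Kif26a held GGGCGG alone. Of the first listed windows of all 27025 genes, 37.9% held CCAAT, 18.1% TTTGAA, 1.57% TTCGAA, 5.31% TAATTA, 35.9% GGGCGG and 14.2% TATAAA. A match describes letters only and is no evidence of binding.

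The same motifs were counted in the windows of the mitotic and the transport kinesins. As background, TTTGAA is the core of the cell cycle genes homology region, through which the DREAM complex holds back genes of late cell cycle phases in resting cells, and CCAAT is bound by NF-Y. TTTGAA was present in 10 of the 11 mitotic kinesins with a window (90.9%), in 0 of the 11 transport kinesins and in 18.1% of all genes. CCAAT was present in 7 of 11 mitotic (63.6%) and 3 of 11 transport kinesins (27.3%), beside 37.9% of all genes. CCAAT together with TTTGAA or TTCGAA stood in 7 of 11 mitotic and 0 of 11 transport kinesins, beside 7.7% of all genes. GGGCGG, the GC box, stood in 6 of 11 mitotic and 9 of 11 transport kinesins, beside 35.9%. Counts use the first window of each gene; a second window of Kif1a holds TTTGAA. Of the mitotic kinesins Kif11, Kif22 and Kif23, and the transport kinesin Kif5c show the arrangement, with the same capitals.
Kif11, chr19:37376132-37376431, plus strand: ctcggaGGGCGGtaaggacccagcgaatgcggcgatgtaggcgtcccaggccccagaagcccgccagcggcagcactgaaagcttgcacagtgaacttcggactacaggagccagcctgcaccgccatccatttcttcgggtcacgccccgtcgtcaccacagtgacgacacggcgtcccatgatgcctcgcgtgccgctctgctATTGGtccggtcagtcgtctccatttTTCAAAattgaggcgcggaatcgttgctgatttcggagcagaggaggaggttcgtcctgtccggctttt
Kif22, chr7:127042371-127042670, minus strand: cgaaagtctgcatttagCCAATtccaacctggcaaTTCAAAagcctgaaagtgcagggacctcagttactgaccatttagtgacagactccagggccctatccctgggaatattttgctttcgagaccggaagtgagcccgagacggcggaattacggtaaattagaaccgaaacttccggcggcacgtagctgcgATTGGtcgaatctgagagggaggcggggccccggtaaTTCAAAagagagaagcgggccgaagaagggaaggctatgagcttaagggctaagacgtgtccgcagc
Kif23, chr9:61946750-61947049, minus strand: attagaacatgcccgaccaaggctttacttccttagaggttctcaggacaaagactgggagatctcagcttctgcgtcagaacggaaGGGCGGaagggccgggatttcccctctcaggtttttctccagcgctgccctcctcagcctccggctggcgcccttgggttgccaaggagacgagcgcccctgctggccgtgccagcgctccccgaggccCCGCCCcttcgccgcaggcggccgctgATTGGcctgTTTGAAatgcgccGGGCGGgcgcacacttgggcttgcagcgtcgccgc
Kif5c, chr2:49619036-49619335, plus strand: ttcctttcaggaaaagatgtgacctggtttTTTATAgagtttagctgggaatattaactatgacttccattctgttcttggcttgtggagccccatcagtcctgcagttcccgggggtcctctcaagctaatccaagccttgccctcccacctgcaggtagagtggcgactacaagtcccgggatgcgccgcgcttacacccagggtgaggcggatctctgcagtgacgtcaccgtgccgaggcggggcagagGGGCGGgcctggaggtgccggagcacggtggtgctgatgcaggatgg

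In Kif11 the CCAAT on the reverse strand began 45 bases before the start and TTTGAA 19 bases before it. In Kif22 the pair nearest the start began 54 and 17 bases before it, and in Kif23 TTTGAA lay just after the start.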

How the data were processed

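RNA of sorted motor neurons was hybridised to 1 array per sample, 11 in all. The deposited values are log2 intensities that the authors made with RMA, per the submitters' processing notes; background correction and normalization were not repeated, and genome build and array settings are not given in the sources used here. Of 45101 probe sets, 64 controls were left out. Symbols came from the platform annotation: 34945 of the tested probe sets had 1 symbol, 932 several and 9160 none. The number of arrays limits the precision.

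Group means were fitted with limma 3.58.1 in R 4.3.3 (8 residual and 2.92 prior degrees of freedom, two-sided moderated tests), and p-values were adjusted by Benjamini-Hochberg within each comparison over 45037 probe sets, called under 0.05. Values of about 5, near the array medians (4.48 to 4.63), were treated as near background. The fit was tested on simulated data. Genes were named by role whatever their result, and full array values went to the 12 genes with the smallest adjusted p in a pairwise comparison, and to Dync1i2, Kif5a and Kif23, chosen after their values were seen. The genes and lists were chosen with earlier results of these data known.

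Replicate numbers recur between types. Deviations from the group means of same-numbered phrenic and C3-C5 GFP-only arrays correlated at 0.125, 0.183, 0.224 and 0.177. Same-numbered pairs with an LMC radial array lay between -0.083 and 0.05. Of the 11 arrays, 1 correlated best with an array of its own number among those of other types. The main fit did not pair arrays, and the replicate number entered as a block in an alternative only. Alternatives covered normalization, dim values, variance prior, array weights, replicate block, probe set choice, array subsets and each array left out.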

Additional observations from a re-analysis of the deposited data

Results flagged for a closer look

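In 6 of 126 groups of 4 arrays (4.76%) 1 array of a motor gene lay far from the other 3, by Dixon's criterion; chance gives about 1 in 20. Kif17 had 5.01 in phrenic array 2, against 4.03 to 4.12 in the other phrenic arrays. Kif4 had 3.93 in phrenic array 3, against 3.32 to 3.43. Dctn6 had 9.51 in phrenic array 4, against 10 to 10.09. Kif1a had 8.23 in C3-C5 GFP-only array 1, against 7.63 to 7.72 in the other arrays of that type, and Dynlt1f had 9.05 in the same array, against 8.83 to 8.86. Kif18b had 3.37 in C3-C5 GFP-only array 2, against 3.54 to 3.58. None of these genes was called in a comparison.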

How the results depend on the processing

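Dync1i1 and Kif26b passed between phrenic and LMC radial neurons in all 25 alternatives run (3.63 to 4.36 and 2.93 to 3.73). The number of motor genes called with 1 array left out was 1 for phrenic minus C3-C5 GFP-only (1 with all arrays), 3 to 4 for phrenic minus LMC radial (4), 3 to 4 for LMC radial minus C3-C5 GFP-only (3), 2 to 3 for phrenic (2), 3 to 5 for LMC radial (4) and 0 to 1 for C3-C5 GFP-only neurons against the mean of the others (1). In the same order, the 7 arrays with the higher 25th percentile gave 0, 2, 0, 1, 2 and 0 calls; fewer arrays were fitted there. A fit of only the types compared gave 2 calls for phrenic minus LMC radial and 5 for LMC radial minus C3-C5 GFP-only. Array weights gave 6 for LMC radial minus C3-C5 GFP-only, 7 for LMC radial and 2 for C3-C5 GFP-only against the others. Leaving out phrenic arrays 3 and 4 together, chosen after seeing the data, gave 5 for LMC radial minus C3-C5 GFP-only. With the replicate block, the pairing by number, the calls were 1, 5, 3, 2, 5 and 0, and Dync1i1 passed between phrenic and C3-C5 GFP-only neurons (adjusted p = 0.0295); Kif18b was gained in both comparisons with 5, Kif26a was lost in that with 0, and no other call changed. For C3-C5 GFP-only against the others, quantile normalization, values below 5 raised to 5, the array set as a block and the replicate block each gave 0. With the mean of all probe sets of a gene, Kif1c turned to -0.41 for phrenic minus LMC radial (adjusted p = 0.0327; 0.11 with 1 probe set) and 0.43 for LMC radial against the others (adjusted p = 0.0165), as its dim probe sets entered that mean. Of all results for single genes and alternatives, 9079 kept their side of the threshold, 46 lost a call, 32 gained one and 2 turned. The causes of the other shifts were not tested.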
